A study of Mus musculus with 10 samples.

Results

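The transcripts of 10 genes that take up, store, sense and export iron were followed in B cells with and without Pcbp1, a cytosolic protein that binds RNA and also carries iron. The genes were chosen by name. Tfrc and Slc11a2 serve iron uptake, Fth1, Ftl1 and Ncoa4 serve storage, Aco1, Ireb2 and Fbxl5 serve sensing, and Slc40a1 and Hmox1 serve export and heme breakdown. All 10 were among the 55492 gene symbols of the deposited count table, and all 10 were among the 21010 that had enough counts to be tested. The question was whether these genes change when the iron chaperone is lost.

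The 10 RNA-seq libraries came from spleen B cells of mice in 4 groups. iGCB KO (3 libraries) and iGCB WT (3) were induced germinal center B cells, that is B cells driven towards a germinal center state on 40-LB feeder cells and taken on day 4. The feeders are fibroblasts engineered to supply CD40 ligand and BAFF. Naive KO (2) and naive WT (2) were naive B cells on day 0. KO mice carried Pcbp1 fl/fl and Mb1-Cre, a Cre inserted in the Cd79a locus that acts from early B cell development onward, and WT is the label of their controls. The alleles and Cre of the WT mice, their age and strain, and whether libraries came from separate animals are not stated in the labels. Xist and the Y-linked Ddx3y placed naive KO 1 and naive WT 1 in female mice and the other 8 libraries in male mice, so the 2 libraries of each naive group came from different animals. For the iGCB groups nothing says so, and there the p-values speak of the spread among these libraries, which may be technical.

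Cells keep iron balanced mostly after transcription. When iron is scarce, the iron regulatory proteins IRP1 (Aco1) and IRP2 (Ireb2) bind hairpins called iron-responsive elements (IREs). A protein bound to the IREs of the Tfrc 3′ UTR protects that mRNA from decay, while one bound to a 5′ UTR IRE, as in ferritin and ferroportin mRNAs, blocks translation and leaves the mRNA level little changed. Counts of mRNA can therefore show the first kind of control and not the second. PCBP1 hands iron to ferritin in the cytosol. Dividing lymphocytes are known to raise the transferrin receptor, and red pulp macrophages of the spleen, which recycle red cells, are known for high ferroportin and heme oxygenase 1.

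IREs of these genes were searched for in the annotated UTRs of the GENCODE M21 annotation (GRCm38/mm10). The search took the motif CNNNNNCAGTGN on the sense strand. It asked that the 5 bases before the CAGTGN loop pair with the 5 bases after it, G-U pairs allowed. Capitals below mark the bulged C and the loop, and each line gives 30 bases 5′ to 3′ on the gene's own strand. By this rule the Tfrc 3′ UTR held 4 sites, and the 5′ UTRs of Fth1, Ftl1 and Slc40a1 held 1 site each.
Tfrc site 1, chr16:32631218-32631247, plus strand: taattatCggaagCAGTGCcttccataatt
Tfrc site 2, chr16:32631597-32631626, plus strand: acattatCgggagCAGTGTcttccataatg
Tfrc site 3, chr16:32631662-32631691, plus strand: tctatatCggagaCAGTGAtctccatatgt
Tfrc site 4, chr16:32631709-32631738, plus strand: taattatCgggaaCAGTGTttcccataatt
Fth1, chr19:9982731-9982760, plus strand: tttcctgCttcaaCAGTGCttgaacggaac
Ftl1, chr7:45459779-45459808, minus strand: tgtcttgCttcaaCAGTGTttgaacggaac
Slc40a1, chr1:45925465-45925494, minus strand: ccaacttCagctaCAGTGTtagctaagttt
The rule itself fixes the loop but for its last base, and the 2 ferritin sites share the same paired stem. Over all annotated genes, the same rule found a match in the 5′ UTRs of 31 of 20916 genes (0.148%) and in the 3′ UTRs of 129 of 21039 genes (0.613%). In the other 6 genes the rule found no site with its 30 bases inside an annotated UTR. An IRE with another loop or an unpaired base in this stem would be missed, so these genes may still carry IREs.

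The Pcbp1 transcript itself (chr6:86524492-86526321, minus strand) was low in every library labelled KO. It stood at 3.71, 1.96 and 2.59 CPM, which are counts scaled to a common library total with TMM factors, in iGCB KO, against 148, 327 and 326 in iGCB WT. In naive B cells it stood at 4.33 and 0.448 CPM in KO, against 152 and 83.9 in WT. The log2 fold change was -6.60 (SE 0.71, adjusted p = 0.00151) in iGCB cells and -5.59 (SE 0.82, adjusted p = 0.0561) in naive cells, where the adjusted p missed the threshold of 0.05. Total counts per library were between 33400672 and 63576147. Summed over 9 B cell markers, the level was 6467 to 6731 CPM in iGCB KO and 4751 to 5395 in iGCB WT, and 7900 and 8409 in naive KO against 9802 and 9267 in naive WT.

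Levels between the genes were compared per kilobase of exon (RPKM). The length used was the union of all annotated exons, for example 3469 bases for Fth1, 1340 for Ftl1 and 9365 for Ncoa4. That union can be longer than the main mRNA, by a factor that differs between genes. The order of the genes and the size of the ratios between genes given below therefore depend on the annotation. In iGCB WT cells the order was Fth1 at 153 ± 10.2, Tfrc at 103 ± 7.86, Ftl1 at 85.4 ± 12.3, Ireb2 at 18.7 ± 2.34, Aco1 at 13.9 ± 0.658, Hmox1 at 7.66 ± 0.993, Ncoa4 at 6.92 ± 0.706, Fbxl5 at 5.92 ± 0.480 and Slc11a2 at 2.99 ± 0.0711 RPKM (SD, n = 3), with Slc40a1 at 0. The ranges of Tfrc and Ftl1 overlapped, as did those of Hmox1 and Ncoa4 and those of Ncoa4 and Fbxl5. In naive WT cells Fth1 was again first at 99.6 ± 8.60 RPKM (n = 2), followed by Hmox1 at 57.8 ± 24.7 and Ftl1 at 49.0 ± 3.37, whose ranges overlapped. Tfrc followed them at 13.1 ± 0.251 RPKM.

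**Figure D1:**
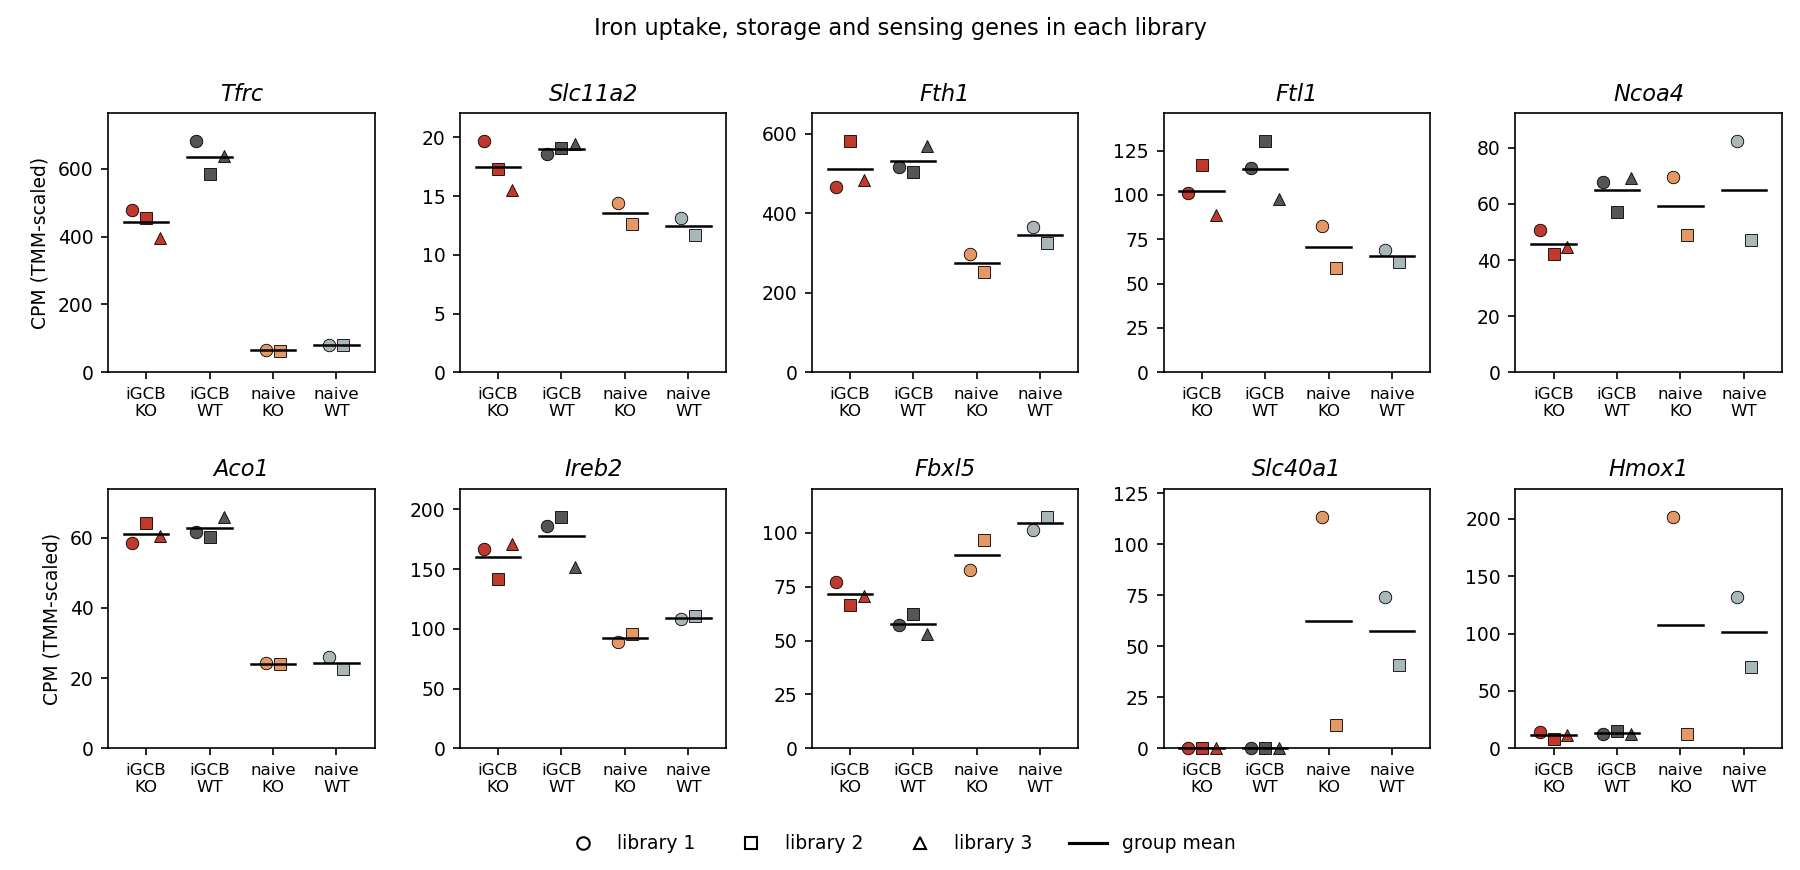
Level of each of the 10 genes in CPM (y axis, from 0) in every library, by group along the x axis, with the group mean as a line and the library number as the marker shape. Tfrc, Slc11a2, Fth1, Ftl1, Aco1 and Ireb2 were higher in all 6 iGCB libraries than in all 4 naive ones. Slc40a1 and Hmox1 spread widely among the naive libraries.

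Across the 5 comparisons, culture moved most of these genes and genotype moved none past the threshold. In KO against WT iGCB cells 0 of the 10 were called, where 1.27% of all 21010 tested genes were. In KO against WT naive cells 0 of 10 were called (0.0476% of all genes), and the KO effects of the 2 stages differed in 0 of 10 (0.0333% of all genes). At an unadjusted p under 0.05 the counts were 3 of 10 in iGCB cells, 0 of 10 in naive cells and 1 of 10 for the difference, against 9.76%, 5.55% and 6.06% of all genes. Another tool, DESeq2, called 1 of 10 in iGCB cells, Tfrc, where it called 5.03% of the genes to which it gave an adjusted p. It called 0 of 10 in naive cells and 0 of 10 for the difference, against 0.864% and 1.62% of such genes. Between stages, 6 of 10 rose and 3 fell in WT cells, where 24.7% of all genes rose and 31.7% fell, and 5 rose and 2 fell in KO cells, where 24.8% rose and 31.4% fell. The share called was thus high among all genes in the stage comparisons, 56.4% in WT and 56.2% in KO cells. The median log2 fold change of the 10 genes was 0.62 in WT and 0.45 in KO cells, against -0.25 and -0.26 over all genes.

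KO and stage comparisons use some of the same libraries, whereas the KO comparisons of the 2 stages share none, nor do the stage comparisons of the 2 genotypes. The 2 stages differ in culture, feeders and time at once, and in part in sex, so these cannot be told apart. In bulk RNA, fewer cells of a type and less RNA per cell cannot be told apart either. Below, it is stated where all libraries of a group lay above or below those of another. The share of all genes that separate in this way was not counted. With 2 or 3 libraries per group, genes without any effect can also separate, and with 2 against 2 often do.

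Transferrin receptor 1, encoded by Tfrc (ENSMUSG00000022797.16, chr16:32608920-32632794, plus strand), brings transferrin-bound iron into the cell. Its level was 478, 456 and 397 CPM in iGCB KO, against 682, 585 and 637 in iGCB WT. All 3 KO libraries lay below all 3 WT libraries. The log2 fold change was -0.52 (SE 0.13, 95% interval -0.81 to -0.22), with an adjusted p of 0.117 over all genes, which missed the threshold. The call depended on the model. DESeq2 gave an adjusted p of 0.000925, a term for sex gave 0.0429 and the 6 iGCB libraries fitted by themselves gave 0.0456, and over all 18 alternatives the adjusted p was between 0.000925 and 0.433. The log2 fold change stayed between -0.57 and -0.44. Leaving out iGCB KO 3, the lowest KO library, gave -0.44 and an adjusted p of 0.433.

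In naive cells Tfrc was at 66.5 and 64.1 CPM in KO, against 79.8 and 82.0 in WT. Both KO libraries lay below both WT libraries. KO over WT gave -0.31 on the log2 scale (SE 0.16, interval -0.67 to 0.05, adjusted p = 0.992), and it was negative within the female pair (-0.26) and within the male pair (-0.36). The KO effects of the 2 stages differed by -0.21 (interval -0.67 to 0.25), which was not significant (adjusted p = 0.998).

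Tfrc rose with culture, by the largest amount among the 10 genes. On the log2 scale, iGCB over naive cells gave 2.76 (SE 0.17, adjusted p = 8.8e-07) in KO and 2.97 (SE 0.17, adjusted p = 5.4e-07) in WT cells, a 6.80-fold and a 7.85-fold rise. The call held in 18 of 18 alternatives in both genotypes. Some fibroblast markers moved with this comparison, since 5 of 12 tested rose in KO and 4 of 12 in WT, and 0 fell in either. Their summed level (13 genes) was 325 to 452 CPM in the 6 iGCB libraries and 3.99 to 24.2 in the 4 naive ones, with 0 to 3 and 1 to 5 of the 13 at 0 counts. Most of that sum was Thy1, at 257 to 413 CPM in iGCB cells, a gene that is also on the list of 9 T cell markers, of which 1 rose and 7 fell in each genotype. Without Thy1 the fibroblast sum was 29.9 to 73.5 CPM in iGCB cells and 2.38 to 15.3 in naive cells, while the collagen gene Col1a1 was at 13.1 to 29.5 CPM in iGCB cells and 0 to 0.555 in naive cells. The part of feeder RNA in the stage comparisons was not tested.

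Transferrin receptor 2, from a list of 16 other iron uptake genes, was the exception among iron genes in the KO comparisons. Tfr2 (chr5:137569840-137587481, plus strand) encodes a relative of the transferrin receptor that is best known as an iron sensor in liver and red cell precursors. It stood at 6.56, 7.23 and 7.59 CPM in iGCB KO (230, 236 and 258 counts), against 0.759, 1.48 and 0.987 in iGCB WT (26, 53 and 40 counts). The groups did not overlap, and all 3 KO libraries stood together above the WT range. KO over WT gave 2.73 on the log2 scale (SE 0.42, adjusted p = 0.0111), or 6.62-fold. Erythroid markers were low but also higher in iGCB KO. Their sum (12 genes) was 2.22, 3.43 and 3.03 CPM in iGCB KO, against 0.993, 0.669 and 1.13 in iGCB WT, without overlap, with 4 to 6 of the 12 at 0 counts in KO and 5 to 8 in WT. Of 11 tested, 8 had a log2 fold change above 0 and 0 below, with a median of 1.26, and 0 passed the threshold. Over all genes 47.2% were below 0. Of 19 myeloid markers 15 were above 0 and 2 below (median 1.24), and of 9 B cell markers 9 and 0 (median 0.38). Germinal center markers were at 5 above and 3 below, fibroblast markers at 4 and 8, and T cell markers at 1 and 8. The part of other cells in the Tfr2 value was not tested. In naive cells Tfr2 stood at 1.27 and 0.762 CPM in KO, against 1.06 and 0.857 in WT, a difference of 0.08 on the log2 scale (SE 0.49, adjusted p = 1).

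The difference of the KO effects on Tfr2 between the stages was 2.64 (SE 0.64), with an adjusted p of 0.302 by edgeR and 0.0026 by DESeq2 (0.0026 to 0.721 over the alternatives). With culture Tfr2 rose by 2.80 in KO (SE 0.49, adjusted p = 0.000805) and did not pass the threshold in WT (0.16, SE 0.45, adjusted p = 0.780). The iGCB call held in all 8 settings that kept every library. It was lost when iGCB WT 1 (adjusted p = 0.0509), iGCB WT 3 (0.0689), iGCB KO 1 (0.0557), iGCB KO 2 (0.0676) or iGCB KO 3 (0.0811) was left out, while the log2 fold change stayed at 2.53 to 3.02. Per kilobase the gene remained low, at 1.64 ± 0.121 RPKM in iGCB KO, against 71.7 ± 6.82 for Tfrc in the same libraries. Tfr2 is named because it was the member of its list past the threshold.

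**Figure D2:**
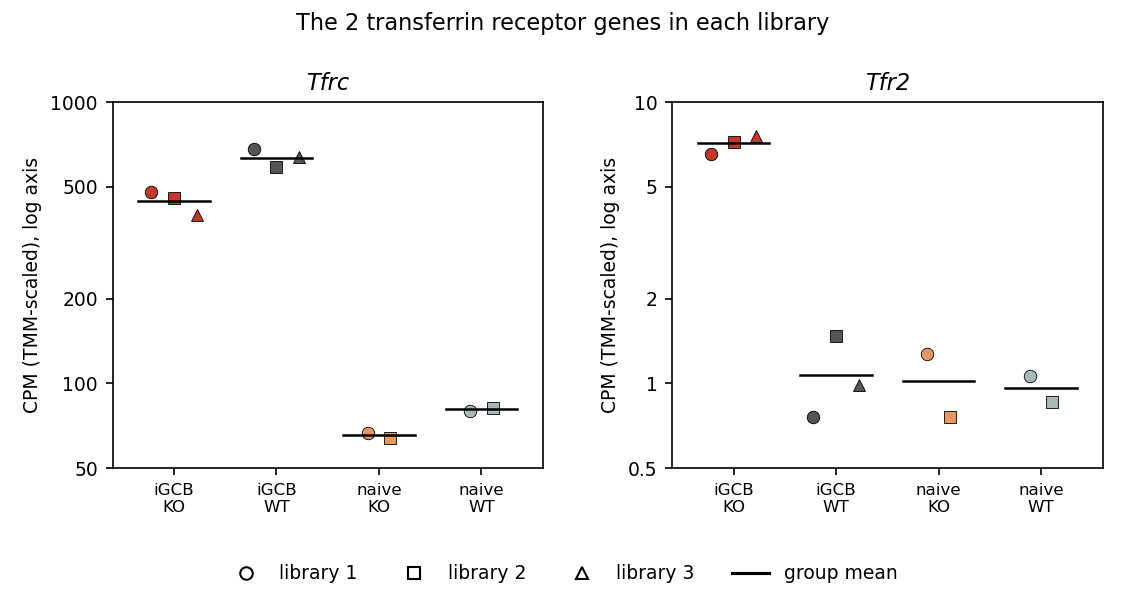
Levels of Tfrc (left) and Tfr2 (right) in CPM on log axes, by group, with 1 marker per library and the group mean as a line. In iGCB cells the 3 KO libraries lie below the 3 WT libraries for Tfrc and above them for Tfr2.

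Slc11a2 (chr15:100387898-100425072, minus strand) encodes DMT1, which moves ferrous iron out of the endosome. It was low throughout, at 19.7, 17.3 and 15.5 CPM in iGCB KO, against 18.5, 19.1 and 19.4 in iGCB WT. Naive cells had 14.4 and 12.6 CPM in KO, against 13.1 and 11.7 in WT. The KO and WT ranges overlapped at both stages, with log2 fold changes of -0.12 (interval -0.51 to 0.27) in iGCB and 0.12 (interval -0.35 to 0.60) in naive cells. With culture the log2 value was 0.37 in KO (SE 0.20, adjusted p = 0.128), and the gene rose in WT by 0.61 (SE 0.20, adjusted p = 0.0224). The WT call was lost in 4 of 18 alternatives, with a block for the replicate number (adjusted p = 0.148), with no low-count filter (0.0639), without naive WT 2 (0.101) and without iGCB WT 2 (0.0530). Known Slc11a2 isoforms end in 3′ UTRs with and without an IRE, and counts per gene do not separate them.

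Ferritin heavy chain, Fth1 (chr19:9980598-9985098, plus strand), forms with the light chain the shell that stores iron, and oxidises the iron as it enters. Its level was 466, 583 and 483 CPM in iGCB KO, against 517, 504 and 571 in iGCB WT, and the groups overlapped. The KO over WT value was -0.06 on the log2 scale (SE 0.15, interval -0.38 to 0.27). Naive cells had 297 and 252 CPM in KO, against 367 and 324 in WT. Both naive KO libraries lay below both WT libraries. KO over WT gave -0.33 on the log2 scale (SE 0.18, interval -0.73 to 0.06, adjusted p = 1), with -0.30 in the female and -0.37 in the male pair.

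Ferritin light chain, Ftl1 (chr7:45457944-45459884, minus strand), helps the iron core to form. It was at 101, 117 and 89.0 CPM in iGCB KO, against 115, 131 and 97.6 in iGCB WT. Naive libraries were at 82.8 and 58.8 CPM in KO, against 68.8 and 62.4 in WT. The ranges overlapped at both stages, with log2 fold changes of -0.16 (interval -0.55 to 0.23) and 0.11 (interval -0.36 to 0.58). The naive value was 0.27 in the female and -0.09 in the male pair.

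Both ferritin genes rose with culture. Fth1 rose by 0.90 (SE 0.17, adjusted p = 0.00119) in KO and by 0.62 (SE 0.17, adjusted p = 0.00898) in WT on the log2 scale. Ftl1 rose by 0.53 (SE 0.20, adjusted p = 0.0404) in KO and by 0.80 (SE 0.20, adjusted p = 0.00624) in WT. The Ftl1 call in KO was lost in 8 of 18 alternatives and leaned on naive KO 2, without which the log2 value was 0.31 (adjusted p = 0.320). It was also lost without iGCB WT 1 (adjusted p = 0.0553), iGCB KO 1 (0.0759) or iGCB KO 2 (0.108). The Fth1 call in WT was lost with the replicate block (adjusted p = 0.107) and without naive WT 2 (0.0581).

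The ratio of Fth1 to Ftl1 per kilobase was 1.78, 1.92 and 2.10 in iGCB KO, 1.73, 1.49 and 2.26 in iGCB WT, 1.39 and 1.65 in naive KO, and 2.06 and 2.01 in naive WT. The naive KO ratios were the lower ones of the naive libraries, while the iGCB ranges overlapped. Ferritin has many near-identical processed copies in the mouse genome, so reads may be split among them. The copies in the table held 0 to 2.39% of the Fth1 count and 0.606% to 1.57% of the Ftl1 count. Adding them changed no call. How reads that match more than 1 place were counted is not stated, so these shares cannot show whether shared ferritin reads were left out.

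NCOA4 is the receptor that carries ferritin to the lysosome, where its iron is released. Ncoa4 (chr14:32159865-32179855, plus strand) was at 50.7, 42.2 and 44.5 CPM in iGCB KO, against 68.0, 57.2 and 69.3 in iGCB WT. The 3 KO libraries lay below the 3 WT libraries. KO over WT gave -0.50 on the log2 scale (SE 0.22, interval -0.98 to -0.03), with an unadjusted p of 0.0401 and an adjusted p of 0.475. Over all alternatives the adjusted p stayed at 0.0622 to 0.804, so no fit called it.

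In naive cells Ncoa4 was at 69.8 and 49.1 CPM in KO, against 82.5 and 47.2 in WT, and the ranges overlapped. KO over WT was -0.13 on the log2 scale (interval -0.70 to 0.45). With culture it was -0.38 (SE 0.24, adjusted p = 0.195) in KO and -0.00 (SE 0.24, adjusted p = 0.997) in WT, so Ncoa4 was the gene among the 10 that was called in neither stage comparison. The 2 naive WT libraries differed more from each other than the genotypes did.

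Among the sensors, Aco1 (chr4:40143081-40198338, plus strand) encodes IRP1, which is the cytosolic aconitase while it holds an iron-sulfur cluster and binds IREs when it does not. It was at 58.4, 64.3 and 60.5 CPM in iGCB KO, against 61.6, 60.3 and 66.0 in iGCB WT. Naive libraries held 24.3 and 23.9 CPM in KO, against 26.0 and 22.6 in WT. The genotypes overlapped at both stages, and the log2 fold changes had narrow intervals, -0.04 (-0.32 to 0.25) in iGCB and -0.01 (-0.36 to 0.34) in naive cells. It rose with culture by 1.34 (SE 0.15, adjusted p = 4.9e-05) in KO and by 1.37 (SE 0.15, adjusted p = 4.1e-05) in WT, in 18 of 18 alternatives each.

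Ireb2 (chr9:54863789-54912530, plus strand) encodes IRP2, which is controlled by its breakdown rather than by a cluster. It was at 166, 142 and 171 CPM in iGCB KO, against 186, 194 and 152 in iGCB WT, with overlapping ranges. The naive levels were 89.1 and 95.9 CPM in KO, below the 108 and 111 of WT. The log2 fold changes were -0.15 (interval -0.46 to 0.16) and -0.24 (interval -0.62 to 0.14), and neither passed the threshold (adjusted p = 0.828 and 1). It rose with culture by 0.79 (SE 0.16, adjusted p = 0.0020) in KO and by 0.70 (SE 0.16, adjusted p = 0.00395) in WT. Per kilobase, Ireb2 exceeded Aco1 in all 10 libraries. The ratio was 1.35, 1.05 and 1.34 in iGCB KO, 1.43, 1.52 and 1.09 in iGCB WT, 1.74 and 1.90 in naive KO, and 1.97 and 2.33 in naive WT, so every iGCB library lay below every naive one.

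FBXL5 is the iron- and oxygen-sensing subunit of the ubiquitin ligase that degrades IRP2. Fbxl5 (chr5:43744615-43821638, minus strand) was at 77.4, 66.5 and 70.5 CPM in iGCB KO, against 57.2, 62.5 and 53.2 in iGCB WT. In naive cells it was at 83 and 96.6 CPM in KO, against 101 and 108 in WT. The KO libraries lay above the WT libraries in iGCB cells and below them in naive cells. The log2 fold change was 0.31 (SE 0.13, interval 0.01 to 0.61, adjusted p = 0.482) in iGCB and -0.22 (SE 0.16, interval -0.58 to 0.14, adjusted p = 1) in naive cells. The difference between these effects was 0.53 (SE 0.21, interval 0.06 to 1.0), with an unadjusted p of 0.0304 and an adjusted p of 0.736 (0.345 to 1.0 over the alternatives).

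Fbxl5 ran against the other sensors with culture. On the log2 scale the value in KO was -0.33 (SE 0.15, adjusted p = 0.0798), and it fell by 0.86 (SE 0.15, adjusted p = 0.000695) in WT. The KO value was called under 4 of 18 alternatives, including both other scalings (-0.43 each, adjusted p = 0.0296 and 0.0365). Fbxl5 shares 98 exonic bases with Bst1 on the opposite strand, which had 1074 counts over all libraries against 33307 for Fbxl5. Of the 3 other ligase subunits listed, Skp1a, Cul1 and Rbx1, Skp1a rose with culture by 1.0 (SE 0.16) in KO and 0.92 (SE 0.16) in WT, and 0 of 3 were called in the KO comparisons.

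**Figure D3:**
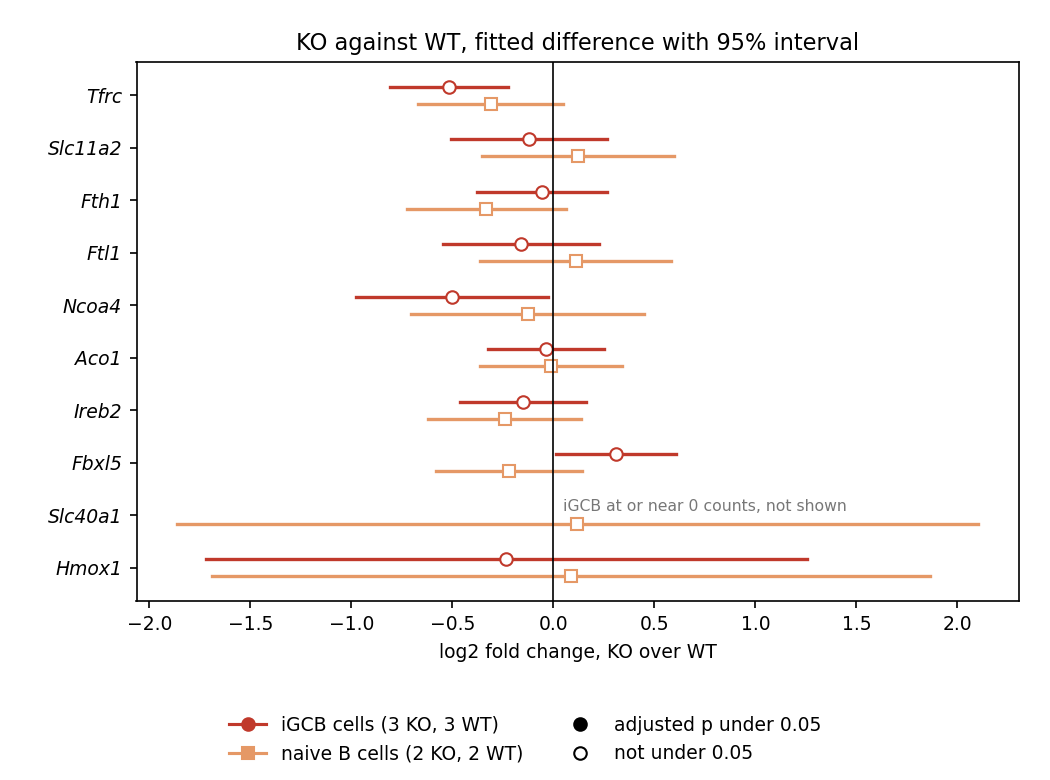
Fitted log2 fold change of KO over WT (x axis) for each gene with its 95% interval, in iGCB cells (circles) and naive B cells (squares), where open symbols mark an adjusted p of 0.05 or more. All symbols are open, and the intervals of Tfrc, Ncoa4 and Fbxl5 in iGCB cells do not reach 0. The iGCB value of Slc40a1 is left out because iGCB cells had almost no counts.

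**Figure D4:**
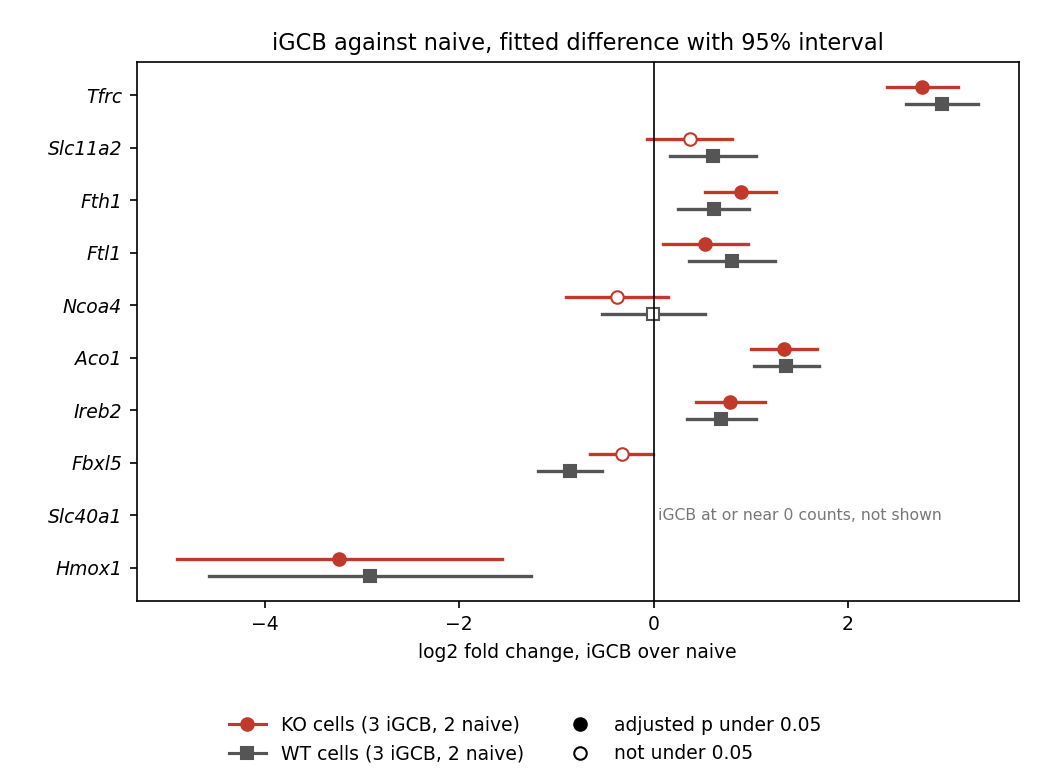
Fitted log2 fold change of iGCB over naive cells (x axis) for each gene with its 95% interval, in KO cells (circles) and WT cells (squares), where filled symbols mark an adjusted p under 0.05. Tfrc is highest at 2.76 and 2.97, Aco1 follows at 1.34 and 1.37, and Hmox1 is lowest at -3.23 and -2.92, with Slc40a1 left out because iGCB cells had almost no counts.

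Ferroportin, Slc40a1 (chr1:45908068-45926523, minus strand), is the only known exporter of iron from cells. It was at 0, 0 and 0.235 CPM in iGCB KO, where 1 library held 8 counts, and at 0 counts in all 3 iGCB WT libraries. In naive cells it was at 114 and 11.6 CPM in KO, against 74.2 and 41.0 in WT. The 2 naive KO libraries enclosed both WT libraries, so the log2 fold change was 0.12 with an SE of 0.88. It was 0.61 in the female and -1.82 in the male pair, and a sex term or the replicate block turned the fitted value to -0.59. In WT cells iGCB libraries were at least 2124-fold lower than naive ones. The floor was 3 counts over the summed TMM-scaled totals of the group, after the low-count filter (0.0271 CPM). The fall was called in both genotypes (adjusted p = 0.000225 in KO and 0.000159 in WT).

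Hmox1 (chr8:75093621-75100589, plus strand) encodes heme oxygenase 1, which frees iron from heme. It was at 14.2, 8.09 and 11.9 CPM in iGCB KO, against 12.2, 15.4 and 12.6 in iGCB WT, and the ranges overlapped. In naive cells it was at 202 and 12.8 CPM in KO, against 132 and 70.6 in WT. As for Slc40a1, naive KO 1 was highest and naive KO 2 lowest. The naive log2 fold change was 0.09 (SE 0.81, interval -1.69 to 1.86), with 0.62 in the female and -2.46 in the male pair and -0.90 under a sex term or the replicate block. That of iGCB cells was -0.23 (interval -1.72 to 1.26). With culture Hmox1 fell by 3.23 (SE 0.76, adjusted p = 0.00442) in KO and fell by 2.92 (SE 0.75, adjusted p = 0.00729) in WT on the log2 scale. The library naive KO 2 lay within the iGCB range, and without naive KO 1 the value was -0.15 (adjusted p = 0.760). Since all iGCB libraries were male, a sex term was also fitted, which gave -1.15 in KO (adjusted p = 0.117), where the call was lost, and -1.82 in WT (adjusted p = 0.00589).

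Most markers of macrophages and other myeloid cells moved with Slc40a1 and Hmox1 among the naive libraries. The summed level of 19 such markers was 1181 and 151 CPM in naive KO, against 881 and 538 in naive WT, with 0 of 19 at 0 counts, and so had the same order over the 4 libraries as both genes. Of the single markers 13 of 19 had that order. Naive KO 2 was lowest for 19 of 19 and naive KO 1 highest for 14 of 19, the exceptions being Marco, Timd4, Itgam, S100a8 and S100a9. Spic, the transcription factor of red pulp macrophages, was at 64.6 and 12 CPM in naive KO, against 43.2 and 29.3 in naive WT. The adhesion molecule gene Vcam1 was at 299 and 31.6 CPM in naive KO, against 228 and 126 in naive WT. In iGCB cells the sum was 95.1, 52.5 and 101 CPM in KO, against 36.4, 55.0 and 49.5 in WT, with 4 to 9 of the 19 at 0, among them Marco in all 6 libraries. Erythroid markers (12 in the table) summed to 238 and 35.8 CPM in naive KO, against 112 and 159 in naive WT, and to 0.669 to 3.43 in iGCB cells. The library order of Slc40a1 and Hmox1 was not particular to myeloid markers. The sum of 9 T cell markers had it too, at 66.0 and 13.3 CPM in naive KO, against 53.8 and 34.7 in naive WT. The fibroblast sum was 24.2 and 3.99 CPM in naive KO, against 18.4 and 21.7 in naive WT. Sums of B cell and germinal center markers had other orders. The share of all genes with the order was not counted. The part of cells other than B cells in the Slc40a1 and Hmox1 values was not tested.

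**Figure D5:**
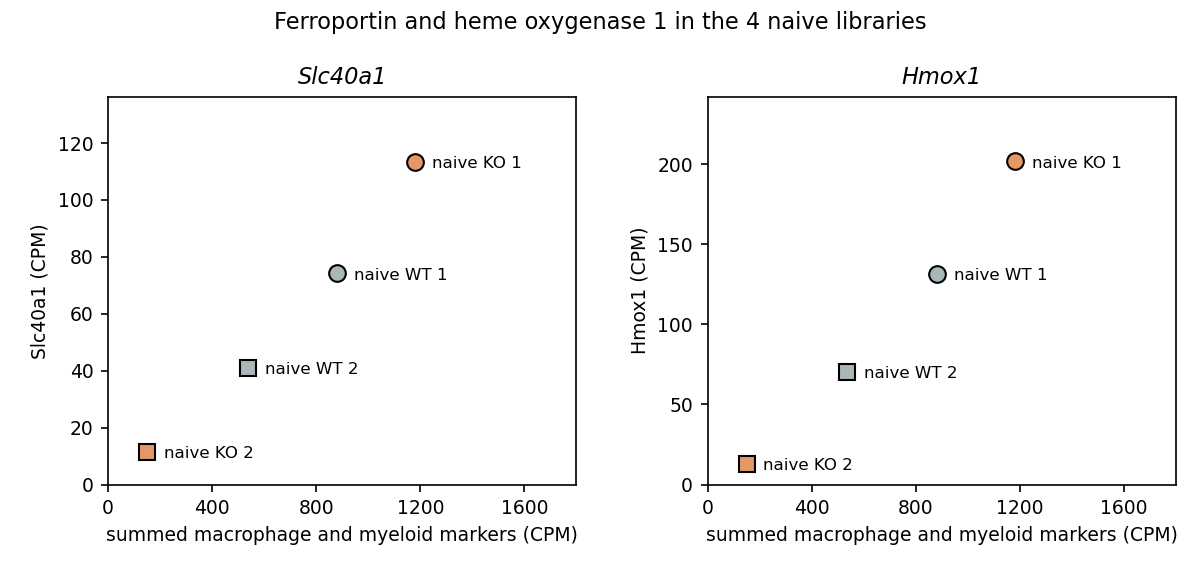
Level of Slc40a1 (left) and Hmox1 (right) in CPM (y axis) against the summed level of 19 macrophage and myeloid markers in CPM (x axis) in the 4 naive libraries. Naive KO 1 is highest and naive KO 2 lowest on every axis, and the 2 WT libraries lie between them.

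The wider iron network was read from 7 further lists with 53 genes, of which 46 were tested. The lists were drawn up from general knowledge of the pathways, with earlier results of these data known. In iGCB cells KO against WT called 1 gene higher, Tfr2, and 0 lower (2.17% of the 46, against 1.27% of all genes), and in naive cells 0. Between stages 16 rose and 14 fell in KO (65.2%, against 56.2% of all genes), and 16 rose and 15 fell in WT (67.4%, against 56.4%). Each count of a list between stages given below stands against 24.8% of all genes higher and 31.4% lower in KO, and 24.7% higher and 31.7% lower in WT. The median log2 fold change of these genes was -0.07 for KO over WT in iGCB cells and -0.00 in naive cells.

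Among the other uptake genes (15 of 16 tested), 4 rose and 4 fell with culture in KO, and 4 rose and 5 fell in WT. Trf, which encodes transferrin itself, fell by 4.92 (SE 0.82) in KO and fell by 5.93 (SE 0.87) in WT on the log2 scale. In naive cells it was at 118 and 11.7 CPM in KO, against 80.6 and 32 in WT, again the library order of the myeloid markers. Lcn2, whose product binds iron-carrying siderophores, held 0 counts in all 3 iGCB KO libraries and in 2 of 3 iGCB WT libraries. Naive cells had 3.13 and 2.60 CPM in KO, against 4.02 and 30.7 in WT. The ferrireductase gene Steap4 fell by 4.66 (SE 1.18) in KO and fell by 3.11 (SE 1.06) in WT. Its relative Steap2 held 6 to 16 counts in each iGCB library and 0 in all 4 naive libraries, and was called higher in both genotypes. The gene of smallest p in the naive KO comparison was Slc22a17, the lipocalin 2 receptor, at a log2 difference of 1.47 (SE 0.57, adjusted p = 0.801).

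Among storage and chaperone genes (6 of 7 tested), 5 rose and 1 fell with culture in KO, and 4 rose and 1 fell in WT. Glrx3, a glutaredoxin that handles iron-sulfur clusters in the cytosol, rose by 2.00 (SE 0.17) in KO and 1.63 (SE 0.16) in WT, and its partner Bola2 rose by 1.61 (SE 0.31) in KO and 1.07 (SE 0.30) in WT. Herc2, a ubiquitin ligase that degrades NCOA4, fell by 1.52 (SE 0.32) in KO and fell by 1.28 (SE 0.32) in WT. Of the Pcbp relatives, Pcbp4 rose with culture by 2.47 (SE 0.25) in KO and 3.40 (SE 0.27) in WT, and Pcbp3 rose by 1.23 (SE 0.21) in KO and 1.59 (SE 0.22) in WT. In naive cells Pcbp4 was at 6.40 and 4.91 CPM in KO, against 2.14 and 2.50 in WT, at a log2 difference of 1.29 (SE 0.26, adjusted p = 0.185). Bola2 had the smallest p of the list in iGCB cells, at 0.66 (SE 0.26, adjusted p = 0.401).

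Of the 12 heme genes, 4 rose and 3 fell with culture in each genotype. Flvcr1, a heme exporter at the cell surface, rose by 3.39 (SE 0.23) in KO and 3.92 (SE 0.24) in WT. It was at 137, 153 and 156 CPM in iGCB KO, against 172, 218 and 243 in iGCB WT. The iGCB KO libraries lay below the WT libraries, at a log2 difference of -0.51 (SE 0.18, adjusted p = 0.322). Abcg2, a transporter that exports porphyrins, rose by 2.16 (SE 0.44) in KO and 3.53 (SE 0.48) in WT. In the naive KO comparison the gene of smallest p was Hpx, at a log2 difference of 7.29 (SE 2.00, adjusted p = 0.462). With a prior count of 2, its KO over WT value was 3.35 in the female and 3.50 in the male pair. Same-numbered iGCB libraries gave 1.38, 3.78 and 1.40 for Hpx. Cd163, the hemoglobin receptor of macrophages, held 0 counts in all 6 iGCB libraries and was at 37.3 and 4.30 CPM in naive KO, against 19.5 and 14.2 in naive WT. Hp, the gene of haptoglobin, held 0 to 2 counts in each iGCB KO library and 0 to 5 in each iGCB WT library, against 82 and 52 in naive KO and 72 and 100 in naive WT, and was called lower in both genotypes.

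Of 5 further genes whose mRNAs are known to carry IREs, 2 rose and 3 fell in each genotype. Alas2, the red cell enzyme that starts heme synthesis, fell by 4.41 (SE 0.63) in KO and fell by 6.30 (SE 0.71) in WT, beside the erythroid markers given above. For KO over WT in iGCB cells Alas2 had the smallest p of the list, at 1.64 (SE 0.68, adjusted p = 0.446). In naive cells that gene was Epas1, at -2.05 (SE 1.01, adjusted p = 0.953). Epas1, which encodes HIF-2α, rose by 4.47 (SE 1.05) in KO and 2.89 (SE 0.93) in WT from under 1 CPM in naive cells. Cdc42bpa fell by 2.14 (SE 0.45) in KO and fell by 2.31 (SE 0.45) in WT, and Cdc14a fell by 0.93 (SE 0.19) in KO and fell by 0.84 (SE 0.19) in WT. Of the 2 mitochondrial iron importers, mitoferrin 1 (Slc25a37) fell by 1.80 (SE 0.19) in KO and fell by 1.84 (SE 0.19) in WT, and mitoferrin 2 (Slc25a28) did not pass the threshold. Among the export and hepcidin genes only 3 of 8 could be tested. Bmp6, a signal for hepcidin, held 0 to 2 counts in each iGCB KO library and 0 to 4 in each iGCB WT library, against 68 and 81 in naive KO and 68 and 55 in naive WT, and was called lower in both genotypes. The ferroxidase gene Cp fell by 1.88 (SE 0.60) in KO and fell by 2.22 (SE 0.61) in WT, at or below 3.43 CPM in every library. Tmprss6 was called higher in WT on at most 30 counts a library.

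Among 14 regulators and targets of NRF2 and the BACH proteins, which control Hmox1 among others, 0 were called in the KO comparisons. With culture 4 rose and 5 fell in KO, and 4 rose and 6 fell in WT. Bach2, a heme-binding repressor of B cells, was at 106, 69.8 and 87 CPM in iGCB KO, against 70.5, 40.3 and 39.1 in iGCB WT. Those ranges overlapped, and the log2 fold change was 0.81 (SE 0.23, adjusted p = 0.178). Bach2 fell with culture by 2.42 (SE 0.26) in KO and 3.53 (SE 0.27) in WT. Me1 rose by 6.90 (SE 2.03) in KO and 4.64 (SE 1.63) in WT. Osgin1, an NRF2 target, fell by 3.95 (SE 0.62) in KO and fell by 2.75 (SE 0.59) in WT, while Gclm, a subunit of the enzyme that starts glutathione synthesis, rose by 1.43 (SE 0.29) in KO and 1.27 (SE 0.28) in WT.

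The HIF prolyl hydroxylases need iron, and PCBP1 is known to supply it, so 15 HIF targets were also followed. In the KO comparisons 0 of 15 were called, and the median log2 fold change was 0.10 in iGCB and -0.12 in naive cells. Ankrd37 had the smallest p in iGCB cells. It was at 34.7, 41.1 and 26.9 CPM in KO, against 20.5, 15.1 and 15.1 in WT. The groups did not overlap, and the log2 fold change was 1.02 (SE 0.33, adjusted p = 0.262). For KO over WT in naive cells Car9 had the smallest p, at 1.73 (SE 0.75, adjusted p = 0.854). With culture 10 of 15 rose and 0 fell in each genotype, where 24.8% of all genes rose in KO and 24.7% in WT. Bnip3, a mitophagy receptor, rose by 5.59 (SE 0.27) in KO and 5.49 (SE 0.27) in WT, and Vegfa, a blood vessel growth factor, rose by 3.92 (SE 0.50) in KO and 3.96 (SE 0.50) in WT. Egln3, itself a HIF prolyl hydroxylase, rose by 5.76 (SE 0.86) in KO and 5.71 (SE 0.86) in WT.

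The genes whose pattern over the 10 libraries was most like Tfrc, among 7155 candidates, were Slc31a1, Ncapg2 and Sqle. Their root mean square differences from Tfrc on the log2 scale, after centring each gene, were 0.154, 0.170 and 0.204. Slc31a1, a copper importer, was at 117 ± 16.5 CPM in iGCB KO, 142 ± 21.2 in iGCB WT, 17.9 ± 0.206 in naive KO and 22.7 ± 1.29 in naive WT. Ncapg2, a condensin subunit, was at 111 ± 11.3 CPM in iGCB KO, 155 ± 12.5 in iGCB WT, 20.1 ± 1.98 in naive KO and 24.2 ± 2.55 in naive WT. Sqle was at 172 ± 10.9 CPM in iGCB KO, 176 ± 14.3 in iGCB WT, 19.1 ± 1.62 in naive KO and 25.2 ± 1.61 in naive WT. Likeness of pattern thus did not require a lower level in iGCB KO. Most like Fth1 were Zc3h15, Alg5 and Itgb1bp1, with differences of 0.0600, 0.0791 and 0.0869. Zc3h15, for example, was at 127 ± 10.5 CPM in iGCB KO, 127 ± 9.87 in iGCB WT, 70.4 ± 7.80 in naive KO and 81.8 ± 12.1 in naive WT. These are descriptions, with n = 3 in each iGCB group and n = 2 in each naive group.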

How the data were processed

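RNA-seq was run on 10 libraries. The authors deposited counts per gene symbol as whole numbers, made with featureCounts on mm10 per the submitters' processing notes. Neither aligner nor annotation nor strandedness is named in the sources used here. Among counts of 1 to 20, odd values made up 17.7% to 26.9%, as when mates are counted singly, so counting floors cover counting error only and take counts as independent.

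From these counts, genes were filtered with filterByExpr by group (minimum count 10), scaled by TMM and fitted in 1 quasi-likelihood model with a coefficient per group, leaving 6 residual degrees of freedom (edgeR 4.0.16, R 4.3.3). Two-sided p-values were adjusted by Benjamini-Hochberg across the 21010 genes, with a threshold of 0.05. The SE is the absolute log2 fold change over the square root of F, and intervals are 95%. RPKM is the CPM per kilobase of GENCODE M21 exon union. The pipeline was tested on simulated data.

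The 10 genes, the other lists and the tests were chosen with earlier results of these data known. The text names all 10 genes, Pcbp1, some marker genes by abundance, and the 3 genes nearest in pattern to Tfrc and to Fth1 (mean log2 CPM of at least 4, prior count 2). From each other list, genes were picked per comparison from the called members (up to 4, by size of fold change). Where none was called, the member of smallest p was picked. Not every gene that this rule picks is given in the text. Spic, Vcam1, Marco, Timd4, Itgam, S100a8, S100a9, Cul1, Rbx1 and Slc25a28 were named after their values were seen. Alternatives were DESeq2 size factors in edgeR, library size alone, no low-count filter, DESeq2 1.42.0, a replicate block, a sex term, the 2 compared groups alone, ferritin copies added, and each library left out in turn.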

Additional observations from a re-analysis of the deposited data

How the results depend on the processing

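Of 978 values of single genes under the alternatives, 906 kept direction and side of the threshold, 21 lost a call, 9 gained one and 42 changed sign, and the cause was not tested. In iGCB cells, KO against WT gave 1 called member in place of 0 with no low-count filter (Slc40a1, on 8 counts), with DESeq2, with a sex term and with the 2 compared groups alone (Tfrc lower in each of these 3). Calls in naive KO and in the difference of KO effects were 0 of 10 everywhere, and stage calls were 6 to 7 of 10 in KO and 7 to 9 in WT.

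Signs changed as follows. For KO over WT in naive cells, library size alone gave 0.017 for Ncoa4 and 0.13 for Aco1, and Aco1 was at 0.014 with no low-count filter and 0.038 with the 2 groups alone. A sex term gave -0.59 for Slc40a1 and -0.90 for Hmox1. For the difference of KO effects, Ireb2 was at -0.047 with library size alone and Hmox1 at 0.67 with a sex term. For iGCB over naive in WT, Ncoa4 was at 0.052 with library size alone, 0.061 with no filter, 0.38 with a sex term and 0.029 with the 2 groups alone. Leaving out single libraries spanned 0 for these log2 values. In naive KO over WT the spans were -0.17 to 0.33 (Ftl1), -0.48 to 0.33 (Ncoa4), -0.12 to 0.087 (Aco1), -2.33 to 0.97 (Slc40a1), -3.0 to 0.99 (Hmox1) and -0.35 to 0.40 (Tfr2). In iGCB KO over WT they were -0.17 to 0.0060 (Fth1), -0.089 to 0.0019 (Aco1) and 0.00 to 5.38 (Slc40a1). For the difference they were -0.49 to 0.013 (Ftl1), -0.12 to 0.082 (Aco1), -0.0092 to 0.16 (Ireb2), -0.12 to 7.03 (Slc40a1) and -1.23 to 2.77 (Hmox1). For stage in WT they were -0.35 to 0.46 (Ncoa4) and -0.14 to 0.35 (Tfr2). Hmox1 lost its KO stage call with a sex term (-1.15, adjusted p = 0.117).

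Same-numbered libraries deviated together in naive cells, where a number is also a sex, and not throughout in iGCB cells. The correlation of KO with WT after group means were removed was 0.67 in naive cells and 0.54, -0.18 and 0.02 in iGCB cells over 7379 genes, and the labels tie no numbers to animals or batches, so the main model had no block. With the replicate block 0 members were called in each KO comparison, Tfrc in iGCB cells was at -0.52 (adjusted p = 0.0611) and Tfr2 at 2.77 (0.00475). In naive KO over WT the block gave -0.59 for Slc40a1 and -0.90 for Hmox1, and it gave 0.64 for Hmox1 in the difference. It lost 3 stage calls, Slc11a2 (adjusted p = 0.148) and Fth1 (0.107) in WT and Ftl1 (0.0719) in KO.

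Counts over all genes were less stable. For KO over WT in naive cells, 10 calls became 242 with no filter, 171 with DESeq2, 31 with the block, 57 with a sex term, 0 with the 2 groups alone and 3 to 44 without single libraries. In iGCB cells 266 became 841, 832, 589, 640 and 863, and 41 to 489 without single libraries. For the difference, 7 became 373, 242, 74 and 108, and 0 to 65 without single libraries. Library size alone moved the median of all genes by 0.12 in naive KO over WT, by -0.14 in the difference and by -0.10 in the KO stage comparison, and DESeq2 size factors moved the KO stage median by -0.11. Slc40a1 held 0 counts over the iGCB WT libraries and 8 over the iGCB KO libraries, so the size of its fold changes that involve iGCB cells is poorly fixed.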
